A study of Homo sapiens with 6 samples.

Results

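The step from 6 h to 24 h of dihydrotestosterone (DHT), a potent natural androgen, was measured between 2 of the 6 RNA-seq libraries of a time course in LNCaP, an androgen-dependent line grown from a human prostate tumour. Both libraries came from cells given 10 nM DHT after 3 days in medium with charcoal-treated serum, which is low in hormones; 1 library was taken at 6 h and 1 at 24 h. Of the other 4 libraries, 1 was from cells without DHT (0 h), and the rest were from cells that had the same dose for 3 h, 12 h or 48 h. The 12 h library, which lies between both, does not enter the step, because reads from chromosome 4 and from the distal part of chromosome 15 are largely missing from it: the 553 genes measured there summed to 5906 CPM at 12 h, against 40943 at 6 h and 41728 at 24 h. Its levels are compared below only outside these regions, except in counts of genes that were highest at 6 h. The whole 12 h library also entered the selection of genes by mean count and the alternative scalings of the libraries. Levels are in CPM, the count of a gene scaled to the total count of its library, and the step of a gene is log2 of (CPM + 1) at 24 h over (CPM + 1) at 6 h. It was computed for the 11916 genes whose 6 libraries averaged 20 counts or more. The 6 h library held 13410529 counts and the 24 h library 20587956, so that 3 counts, the limit that a count of 0 allows, correspond to 0.224 and 0.146 CPM.

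There was 1 library a side, and no library of untreated cells at 24 h is analysed here, so that the effect of DHT and of time in culture cannot be told apart. No test across samples was possible, and no p-value is given. A gene is called higher or lower when its step reaches 2-fold, a fixed rule of size, and 95% intervals of ratios are exact conditional binomial intervals that cover counting error only. In bulk RNA, fewer cells of a kind and less RNA per cell cannot be told apart.

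Androgens are steroid hormones that act in the nucleus on the transcription of their target genes. Direct target genes can respond within hours, while changes that need new proteins follow later. In the luminal cells of the prostate, known responses include secreted proteases, lipid synthesis, the protein secretion machinery and the cell cycle.

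Between 6 h and 24 h, 191 of 11916 genes (1.6%) were higher and 750 (6.29%) lower by 2-fold, while 8774 (73.6%) stayed within 1.5-fold. The metalloreductase gene STEAP4 had the largest increase and DDC, which encodes DOPA decarboxylase, the largest decrease. As groups, genes of mitosis were lower at 24 h, and genes of vesicle transport and of cholesterol and fatty acid synthesis were higher. None of the 941 called genes had a ratio interval that included 1. These intervals come from the same counts as the calls, so they add no support to them. The edge of the rule was a matter of size only: MESP1 (1.0012) and TSC22D1 (1.0027) lay just inside it among higher genes and HM13 (0.9987) just outside, and among lower genes COL9A3 (-1.0005) lay just inside.

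The balance of higher and lower genes rests on how the libraries were scaled. The median step of all genes was -0.22 on the CPM scale. Scaling by the median of ratios moved it to -0.02, which gave 334 higher and 443 lower genes, 43.0% higher in place of 20.3%; TMM scaling gave 337 and 442. Values of groups below are therefore to be read against -0.22 and not against 0. The step also followed the GC content of the transcripts, weakly (Pearson r = 0.206 and Spearman rho = 0.226 across 11138 genes, which are not independent replicates). The median step was -0.39 in the bin of lowest GC content and -0.05 in that of the highest, each bin holding 1114 genes. By comparison, the change from 0 h to 6 h ran from 1.16 to -0.60 over the same bins (r = -0.739). With the GC trend subtracted, 316 genes were higher (2.84%) and 354 lower (3.18%); the same 11138 genes gave 182 (1.63%) and 695 (6.24%) without this correction. All 182 and 354 of these 695 were called both ways.

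**Figure D1:**
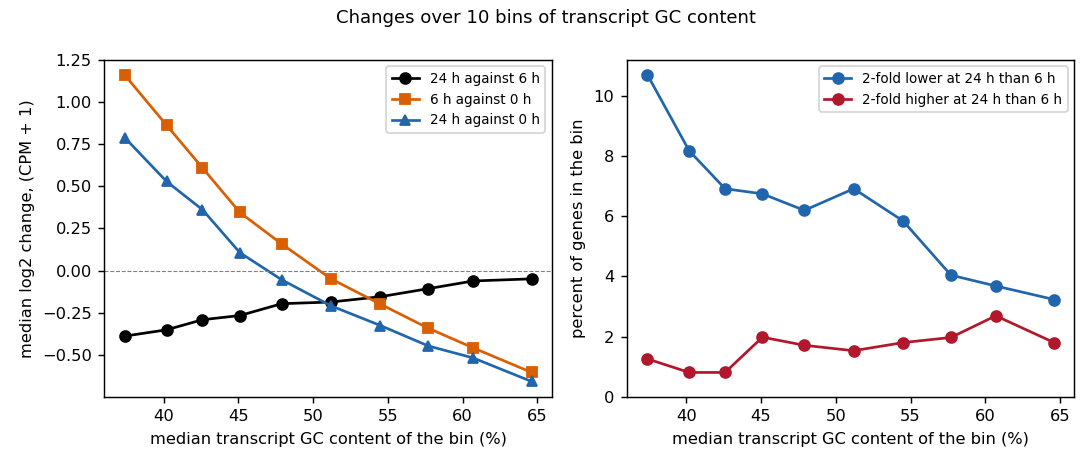
Left, median log2 change in 10 bins of transcript GC content (x axis, percent) for 24 h against 6 h (black), 6 h against 0 h (orange) and 24 h against 0 h (blue). Right, percent of genes in each bin that were 2-fold lower (blue) or higher (red) at 24 h than at 6 h; the share of lower genes went from 10.7% in the bin of lowest GC content to 3.23% in the highest.

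The 12 h and 48 h libraries did not enter the rule, but their place between or beyond the 6 h and 24 h levels depends on the gap by which the genes were called, so the following counts are descriptions. Outside the regions missing at 12 h, 836 of 881 called genes (94.9%) had a 12 h level between those at 6 h and 24 h. Over all genes outside these regions it was 6285 of 11363. At 48 h, 173 of the 191 higher genes (90.6%) and 493 of the 750 lower genes (65.7%) were on the 24 h side of the midpoint of the 6 h and 24 h levels. So were 7179 of all 11916 genes, which is the share to set beside such counts below.

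Higher and lower genes differed in what they had done before 6 h. Of the 191 higher genes, 58 had already risen by 2-fold between 0 h and 6 h, 86 had stayed within 1.5-fold of 0 h and so were new after 6 h, 40 lay between, and 7 had been lower by 2-fold at 6 h and turned back. Of the 750 lower genes, 37 carried on a fall, 325 were new after 6 h, 188 lay between, and 200 had been higher by 2-fold at 6 h and turned back. Both changes share the 6 h library, so a high or low value in it enters both with opposite sign, and the split is a description. Between 0 h and 6 h 15.3% of all genes were higher by 2-fold and 3.01% lower. Seen from 0 h, 148 of the 191 higher genes and 382 of the 750 lower ones were past 2-fold in the same direction at 24 h, where 10.5% of all genes were higher and 10.8% lower, and 237 of the lower ones were within 1.5-fold of 0 h.

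The 200 genes that turned back were chosen for a high 6 h level, which the rule thus nearly fixes as their highest: it was so in 194 of them, and 149 were within 1.5-fold of their 0 h level at 24 h. Their median GC content was 39.3%, against 49.5% for all genes. With the GC trend removed from the step, 69 of the 183 with a GC value were lower by 2-fold, and with it removed from both changes 24 genes were in this class. At 48 h, 101 of the 200 (50.5%) lay on the 24 h side of the midpoint, against 7179 of 11916 over all genes. By contrast, the 325 lower genes that were new after 6 h had a median GC content of 49.7%, 174 of 304 remained lower by 2-fold with the trend removed, and 239 (73.5%) were on the 24 h side at 48 h. The part of GC content in these falls was not tested further.

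**Figure D2:**
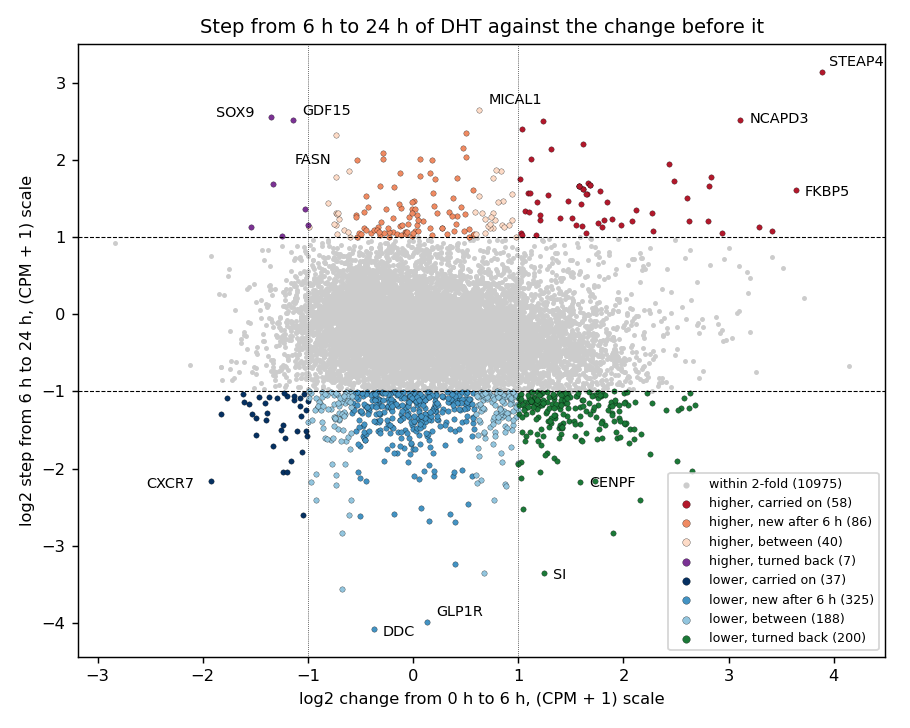
Log2 step from 6 h to 24 h (y axis) against the log2 change from 0 h to 6 h (x axis) for 11916 genes, each point a gene and colours giving the classes with their sizes. Dashed and dotted lines mark 2-fold; 58 genes sit at the upper right, where a rise carried on, and 200 at the lower right, where a rise turned back.

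STEAP4, which reduces iron and copper at membranes, stood at 1.44, 3.97, 35.2, 98.04, 319 and 344 CPM from 0 h to 48 h, in the order of the 6 times, which all such series below follow. It was 9.07-fold (95% interval 8.26 to 9.98) higher at 24 h than at 6 h, a step of 3.14, and all 3 libraries from 12 h on lay above the 3 earlier ones. NCAPD3, a subunit of condensin II, which folds chromosomes, had 79.3, 145, 692, 2028, 3982 and 2547 CPM. Its ratio of 24 h to 6 h was 5.75 (5.63 to 5.88), and it was lower again at 48 h. FKBP5, a co-chaperone of steroid receptors and a classical androgen target, had 59.03, 152, 748, 1588, 2286 and 2050.4 CPM, a ratio of 3.06 (2.99 to 3.12). These 3 genes had risen by 2-fold before 6 h and carried on.

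The best known androgen targets had smaller steps. KLK2, a kallikrein protease, had 770.1, 1036, 2175, 2078, 2288 and 2628 CPM, with a ratio of 1.05 (1.04 to 1.07) over the step. For KLK3, its paralog that encodes prostate-specific antigen, the levels were 4727, 4566, 6232, 7116, 10012 and 11950.0 CPM, a ratio of 1.61 (1.59 to 1.62). TMPRSS2, a membrane serine protease, had 404, 1747, 2873, 3767, 4479 and 4554 CPM and a ratio of 1.56 (1.54 to 1.58). None of these 3 reached 2-fold between 6 h and 24 h, and all 3 were at their highest at 48 h.

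The 12 largest increases also held genes that had been below their 0 h level at 6 h. GDF15, a secreted stress cytokine, had 894, 598, 405, 814, 2324 and 4659 CPM, and SOX9, a transcription factor of epithelial progenitors, 20.3, 9.57, 7.31, 18.1, 47.9 and 48.4 CPM. Both were lowest at 6 h among the 6 libraries and at 24 h above 0 h, with ratios of 5.73 (5.57 to 5.896) and 6.55 (5.32 to 8.15). HMOX1, the heme-degrading enzyme, was lowest at 6 h as well, with 46.1, 34.1, 27.4, 35.00, 142 and 125 CPM.

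Other genes of the 12 were above their 0 h level at 6 h. MICAL1, an enzyme that oxidises actin, had 28.9, 30.1, 45.3, 129, 290.3 and 263 CPM, a step of 2.65. GNMT, which methylates glycine, had 4.704, 6.87, 7.08, 19.1, 40.4 and 53.8 CPM and was within 1.5-fold of 0 h at 6 h. AGR2, a protein disulfide isomerase of secretory epithelia, had already risen by 2-fold at 6 h, with 4.48, 5.598, 11.9, 30.5, 72.8 and 82.4 CPM and a step of 2.51. Its change from 0 h to 6 h was 1.24, and 0.51 with the GC trend removed. Further genes of the 12 were low throughout and had risen by 2-fold at 6 h: thyroglobulin (TG) with a step of 2.405, the glucose transporter SLC2A3 with 2.21 and the acute-phase glycoprotein ORM1 with 2.14 were at 18.1, 16.4 and 11.6 CPM at 24 h. SLC2A3 and ORM1 have close copies, to which reads may belong.

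Among the genes new after 6 h were also BHLHB8 and CHAC1. BHLHB8 (now BHLHA15), a transcription factor of secretory cells, had 13.9, 7.23, 11.2, 31.6, 50.8 and 33.6 CPM. CHAC1, which degrades glutathione, had 9.79, 19.8, 7.83, 4.55, 34.8 and 16.6 CPM and was below its 6 h level at 12 h.

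**Figure D3:**
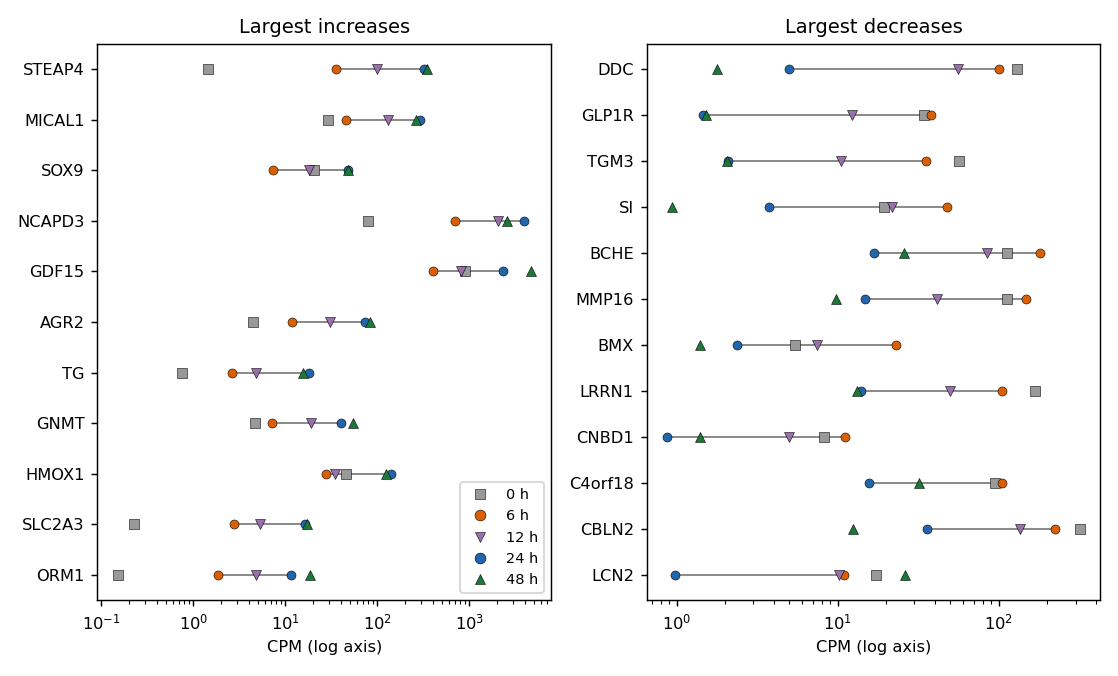
Level in CPM (log axis) of 11 of the 12 genes with the largest increase (left) and the 12 with the largest decrease (right) between 6 h (orange circles) and 24 h (blue circles), joined by a line. Squares show 0 h, downward triangles 12 h (left out for C4orf18, on chromosome 4) and upward triangles 48 h; the 12 h level lies between 6 h and 24 h in every gene shown with one.

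DDC stood at 131, 159, 101, 56.3, 5.003 and 1.79 CPM, so that the 24 h level was 0.0498 times that at 6 h (0.0403 to 0.0609), a step of -4.08. It was the last 3 libraries that were low, each below the one before. GLP1R, the receptor of glucagon-like peptide 1, had 34.5, 26.4, 37.95, 12.3, 1.46 and 1.53 CPM, and the transglutaminase TGM3 56.9, 93.7, 35.3, 10.6, 2.09 and 2.06 CPM. MMP16, a membrane-bound metalloproteinase, had 112, 70.4, 148, 41.5, 14.7 and 9.84 CPM. These 4 genes were low at both 24 h and 48 h.

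BCHE, which encodes butyrylcholinesterase, had 112, 81.4, 180.1, 84.1, 16.7 and 25.8 CPM, and the sucrase-isomaltase gene SI 19.5, 12.4, 47.6, 21.6, 3.74 and 0.9304 CPM. SI and BMX, a tyrosine kinase, were among the genes that turned back, and both were highest at 6 h. Their changes from 0 h to 6 h, 1.24 and 1.90, were 0.17 and 1.34 with the GC trend removed. The step was -3.36 for SI and -2.83 for BMX. LRRN1, a neuronal leucine-rich repeat protein, had -2.83, and CBLN2, a synapse organiser, -2.61. CNBD1 had -2.69 and C4orf18 (now GASK1B), on chromosome 4, -2.68.

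The lipocalin LCN2 was unlike the rest, with 17.2, 39.5, 10.96, 10.2, 0.971 and 26.3 CPM: low at 24 h and highest of the late libraries at 48 h. The next genes that turned back were KITLG, the ligand of the KIT receptor, with 7.89, 8.01, 17.4, 7.56, 2.19 and 7.18 CPM, and the dynein gene DNAH8 with 1.52, 1.700, 10.2, 3.38, 1.12 and 2.59 CPM. KITLG was near its 0 h level at 48 h. Its change from 0 h to 6 h was 1.05, and -0.12 with the GC trend removed.

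Mitosis genes fell in this step. Of 32 measured genes, 29 were lower by 2-fold and 0 higher, against 6.29% and 1.6% of all genes, and each lay below the median step of all genes. The median step was -1.34, and the range -2.17 to -0.80. With the GC trend removed the median was -1.09 and 19 of 32 were lower by 2-fold, and with a pseudocount of 5 in place of 1 CPM there were 15; a larger pseudocount shrinks the step of genes with low levels. The level at 24 h was the lowest of the 5 libraries other than 12 h in 26 genes, against 23.8% of all genes.

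The drop followed a high level at 3 h in part of the list. CCNB1, the cyclin that drives entry into mitosis, had 66.2, 122, 71.7, 63.5, 28.6 and 35.4 CPM, and PLK1, a kinase of mitotic entry and spindle formation, 41.7, 72.1, 30.1, 25.4, 9.03 and 16.4 CPM. CDC20, an activator of the anaphase-promoting complex, had 42.5, 68.9, 30.9, 22.2, 9.91 and 13.6 CPM. In all 3 the 24 h level was the lowest and the 3 h level the highest. BIRC5, a subunit of the chromosomal passenger complex better known as survivin, had 38.2, 74.3, 37.6, 30.7, 11.03 and 14.6 CPM, a ratio of 0.293 (0.2497 to 0.344). PTTG1, which encodes securin, the inhibitor of separase, had 25.6, 32.4, 20.9, 16.95, 4.86 and 9.504 CPM, a ratio of 0.233 (0.183 to 0.293), and KIF20A, a kinesin of cytokinesis, 27.4, 46.5, 27.4, 20.8, 7.48 and 14.8 CPM.

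Other mitosis genes were highest at 6 h, 13 of the 32 in all, against 2937 of 11916 over all genes. Both counts include the 12 h level, though only 27 of the 32 lie outside the regions missing there. CENPF, a kinetochore protein, had 17.4, 13.04, 54.3, 30.1, 11.3 and 38.02 CPM, a step of -2.17, and the topoisomerase TOP2A, which untangles chromosomes, 26.7, 21.8, 49.7, 41.9, 16.6 and 29.5 CPM. CDC2 (now CDK1), the kinase that partners with cyclin B, had 6.904, 9.14, 27.96, 24.7, 11.7 and 25.6 CPM. These are genes of low GC content, such as CENPF with 40.8% and TOP2A with 39.1%. With 3 h in place of 6 h as the start, a comparison added after the data were seen, the median of the list was -1.40 and 22 genes were lower by 2-fold. By 48 h the median stood -0.66 from the 6 h level. At that time 14 of 32 were on the 24 h side of the midpoint, against 7179 of 11916 over all genes.

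Promoters of mitosis genes share known sequence features. Many hold a CCAAT box, bound by the factor NF-Y, and the cell cycle homology region TTTGAA, through which the DREAM and MuvB complexes repress or activate transcription by cell cycle phase. In RefSeq windows of 300 bases (250 before to 50 after the start, GRCh38.p14), available for 26 of the 32 genes, TTTGAA on either strand was present in 16 (61.5%) and CCAAT on either strand in 22 (84.6%). Over all 27305 windows the shares were 15.4% and 35.7%. Both motifs were in 15 of the 26 (57.7%) and in 6.08% of all windows; where they adjoin, these motifs can share at most 1 base. A match describes letters in a window and not a bound site. The windows of CENPF and PLK1, the genes with the largest steps among those with both motifs, are printed from the 5′ to the 3′ end of the gene's strand, with both motifs, read on either strand, in capitals. The CENPF window is chr1:214602945-214603244, plus strand, and the PLK1 window is chr16:23678639-23678938, plus strand.
CENPF: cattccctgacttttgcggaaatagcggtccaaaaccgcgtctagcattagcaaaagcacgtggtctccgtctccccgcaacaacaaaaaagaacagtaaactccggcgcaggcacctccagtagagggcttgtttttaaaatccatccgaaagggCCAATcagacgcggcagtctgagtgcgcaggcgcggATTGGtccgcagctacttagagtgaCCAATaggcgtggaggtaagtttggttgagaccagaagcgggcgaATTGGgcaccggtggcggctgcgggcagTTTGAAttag
PLK1: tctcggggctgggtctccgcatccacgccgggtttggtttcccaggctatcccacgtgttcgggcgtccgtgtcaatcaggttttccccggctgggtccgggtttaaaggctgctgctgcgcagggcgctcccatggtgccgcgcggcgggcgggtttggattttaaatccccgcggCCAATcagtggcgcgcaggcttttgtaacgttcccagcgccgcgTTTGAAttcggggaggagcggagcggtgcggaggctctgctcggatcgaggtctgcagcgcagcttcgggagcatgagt

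**Figure D4:**
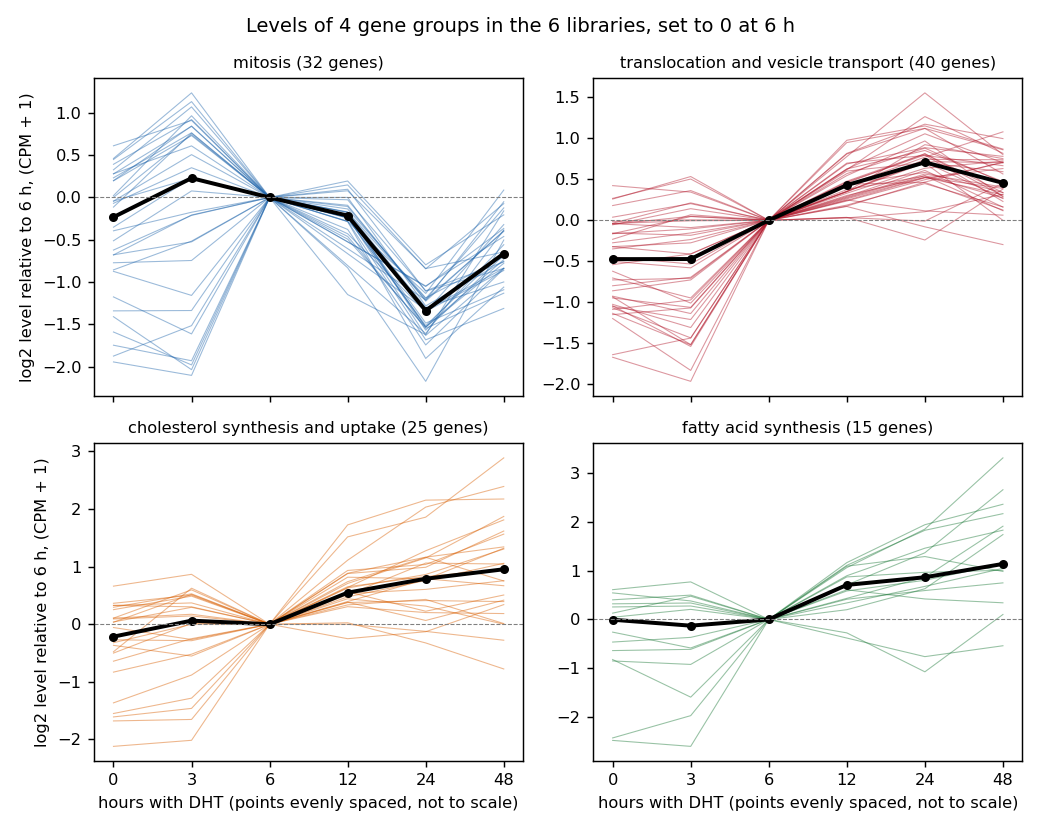
Log2 level on the (CPM + 1) scale relative to 6 h (y axis) of the measured genes of 4 groups in the 6 libraries (x axis, hours with DHT); thin lines are genes, black lines the median, and 12 h values of genes in the regions missing there are left out. The median of mitosis genes is -1.34 at 24 h, that of vesicle transport genes 0.71, of cholesterol genes 0.79 and of fatty acid genes 0.87.

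Genes of DNA replication and the G1/S transition moved less. Of 36, 3 were lower by 2-fold and 0 higher, near the 6.29% and 1.6% of all genes, with a median of -0.59 (-0.37 with the GC trend removed). The 3 were GINS1, a subunit of the replicative helicase, the thymidine kinase TK1 and ORC6L (now ORC6), of the origin recognition complex, at -1.16, -1.12 and -1.09. Under median-of-ratios or TMM scaling none reached 2-fold. The 24 h level was the lowest of the 5 libraries other than 12 h in 26 of 36, against 23.8% of all genes. Of 17 genes that control cyclin-dependent kinases, 1 was lower, near the share of all genes. It was SKP2, which marks the inhibitor p27 for degradation, at -1.14, and its call was lost under either of these scalings. CDKN1A, which encodes the inhibitor p21, had 221, 205, 126, 247, 242 and 198 CPM, a step of 0.94 that falls short of 2-fold and of 1.07 with the GC trend removed.

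The machinery of protein translocation and vesicle transport was higher at 24 h. Secreted proteins enter the endoplasmic reticulum through the SEC61 channel, leave in COPII vesicles and pass back and forth through the Golgi with COPI coats. Of 40 genes of this route, 7 were higher by 2-fold (17.5%, against 1.6% of all genes) and 0 lower, and 39 of 40 lay above the median of all genes. The median step was 0.71, and 0.98 with the GC trend removed, where 16 of 39 were higher. Median-of-ratios scaling gave 14. In 31 of 40 the 24 h level was the highest of the 5 libraries other than 12 h, against 10.4% of all genes.

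SEC24D, a cargo adaptor of the COPII coat, had the largest step, 1.56, with 23.7, 27.5, 76.1, 226 and 133 CPM at 0, 3, 6, 24 and 48 h; it lies on chromosome 4, which is largely missing at 12 h. COPG (now COPG1), a subunit of the COPI coat, had 427, 479, 416, 638, 1001 and 734 CPM, and SSR3, of the complex beside the SEC61 channel, 121, 122, 201, 354, 454 and 402 CPM. SEC61G, a subunit of the channel, had 50.2, 48.5, 51.6, 103, 116 and 95.1 CPM, and ARF4, a GTPase that acts in COPI recruitment, 138, 149.9, 167, 323, 365 and 248 CPM. SEC61G and COPG were within 1.5-fold of 0 h at 6 h, so that their rise came after 6 h. KDELR2, which returns chaperones to the endoplasmic reticulum, had 1.12, and ARFGAP3, a regulator of ARF GTPases, 1.06.

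Genes of protein folding and stress sensing in the endoplasmic reticulum had steps from -0.14 to 1.77, each above the median of all genes. Of 28, 4 were higher by 2-fold (14.3%, against 1.6% of all genes) and 0 lower, with a median of 0.55 (0.77 with the GC trend removed, 8 higher; 9 higher by the median of ratios). CREB3L4, a membrane-bound transcription factor of secretory cells, led with 90.9, 91.8, 122, 322, 417 and 228 CPM, a ratio of 3.42 (3.25 to 3.61). DNAJC10, a disulfide reductase, had 26.9, 23.6, 82.99, 142, 226 and 227 CPM. EDEM3, which trims glycans of misfolded proteins, and the co-chaperone DNAJB9 completed the 4 with 1.07 and 1.06. The most abundant chaperones had smaller steps: HSPA5 (BiP) had 749.9, 917, 1113, 1512, 1253 and 878 CPM and 0.17, and HSP90B1 0.06.

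This order can be set beside the promoters. The endoplasmic reticulum stress element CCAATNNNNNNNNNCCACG, at which the factors ATF6 and NF-Y bind when unfolded proteins accumulate, was searched on both strands; its first 5 letters are those of the CCAAT box above. It was present in 7 of 27 windows of the folding list (25.9%), in 0 of 35 of the vesicle list and in 22 of all 27305 windows (0.0806%). The 7 genes were CALR, CANX, CRELD2, ERO1LB, HSP90B1, HSPA5 and XBP1. Their steps ran from -0.06 to 0.82, none of them past 2-fold, against 4 of 28 on the whole list. These counts are too small to show a difference, and the part of the element in the steps was not tested. XBP1, a transcription factor of the unfolded protein response, and CRELD2, a chaperone-like protein, had the largest steps of the 7 (0.82 and 0.799). Their windows are printed 5′ to 3′ with both ends of the element in capitals, the element of CRELD2 being on the opposite strand. The XBP1 window is chr22:28800520-28800819, minus strand, and the CRELD2 window is chr22:49918384-49918683, plus strand (GRCh38.p14, RefSeq).
XBP1: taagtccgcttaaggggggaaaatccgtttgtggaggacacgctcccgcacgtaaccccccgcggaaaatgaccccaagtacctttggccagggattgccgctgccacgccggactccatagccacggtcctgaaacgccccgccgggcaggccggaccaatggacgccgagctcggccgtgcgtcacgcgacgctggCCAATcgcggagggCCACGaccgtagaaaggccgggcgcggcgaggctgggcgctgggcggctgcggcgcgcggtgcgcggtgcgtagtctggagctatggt
CRELD2: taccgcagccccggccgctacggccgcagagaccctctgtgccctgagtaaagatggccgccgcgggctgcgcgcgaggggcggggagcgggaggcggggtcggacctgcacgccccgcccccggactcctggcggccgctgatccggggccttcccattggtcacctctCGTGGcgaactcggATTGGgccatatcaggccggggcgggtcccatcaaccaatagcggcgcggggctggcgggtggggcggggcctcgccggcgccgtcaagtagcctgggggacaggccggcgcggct

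Keratins of luminal cells rose in the same window. KRT8 had 344, 456, 594, 1451, 2169.6 and 1135 CPM and its partner KRT18 393, 420.4, 454, 1037, 1529 and 819 CPM, ratios of 3.65 (3.57 to 3.74) and 3.37 (3.28 to 3.46). Both were highest at 24 h. FOLH1, which encodes prostate-specific membrane antigen and has a close copy, moved the other way with 479.7, 422, 471, 316, 133 and 261 CPM, a ratio of 0.283 (0.271 to 0.296).

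Genes of cholesterol synthesis and uptake were higher at 24 h than at 6 h. Cells make cholesterol from acetyl-CoA through the mevalonate pathway, and the SREBP2 factor raises its enzymes when membrane sterol is low. Of 25 measured genes, 9 were higher by 2-fold (36%, against 1.6% of all genes) and 0 lower, with a median of 0.79, or 0.97 with the GC trend removed. INSIG1, which holds SREBP in the endoplasmic reticulum when sterol is plentiful, had 34.98, 43.6, 63.01, 182, 231 and 473 CPM, a ratio of 3.67 (3.41 to 3.95), and was higher still at 48 h. IDI1, which isomerises the isoprenoid building block, had 16.6, 16.9, 55.4, 103, 111 and 172 CPM and a step of 0.99, just short of 2-fold. STARD4, a carrier of sterol between membranes, had 1.82, 2.13, 7.61, 13.1, 18.1 and 30.5 CPM, a ratio of 2.38 (1.91 to 2.995).

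The list was not uniform. SREBF2 (the gene of SREBP2) and SCAP, its escort, had steps of 1.06 and 1.16, and the early enzyme HMGCS1 1.16. TM7SF2, SC5DL (now SC5D) and PMVK had -0.32, -0.13 and -0.12. At 48 h, 22 of 25 were on the 24 h side, against 7179 of 11916 over all genes. CCAAT was in the window of 15 of 19 cholesterol genes (78.9%) against 35.7% of all windows.

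For fatty acid synthesis, 6 of 15 genes were higher by 2-fold (40%, against 1.6% of all genes) and 1 lower, with a median of 0.87 (1.13 with the GC trend removed). ACSL3, which activates long-chain fatty acids, had 80.3, 111, 439, 987, 1695 and 2268 CPM and a ratio of 3.86 (3.76 to 3.97). FASN, fatty acid synthase, had 2368, 2645, 1549, 3242, 5609.9 and 15476 CPM, a ratio of 3.62 (3.57 to 3.67); its 6 h level was the lowest of all. FADS2, a desaturase, had 923, 1175, 844, 1824, 3006 and 3810.3 CPM and a ratio of 3.56 (3.49 to 3.63). ACSL3 alone of these had risen by 2-fold before 6 h. FADS1, SCD and ACLY, which supplies acetyl-CoA, had 1.46, 1.37 and 1.29. The gene that was lower, ACSL4, had -1.08, and -0.69 with the GC trend removed. At 48 h, 14 of 15 were on the 24 h side, against 7179 of 11916 over all genes.

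ATF4 is the transcription factor of the amino acid and stress response, and its targets include amino acid transporters and enzymes of serine and asparagine synthesis. Of 24 genes of this list 4 were higher by 2-fold (16.7%, against 1.6% of all genes) and 0 lower (6.29% of all), with a median of 0.67 (0.89 with the GC trend removed), and all 24 lay above the median of all genes. SLC1A5, the glutamine transporter, had 115, 117, 78.9, 133, 319 and 231 CPM, a ratio of 4.04 (3.79 to 4.32), and its relative SLC1A4 23.4, 27.1, 30.7, 37.7, 89.2 and 57.02 CPM. Besides CHAC1, the pseudokinase TRIB3 was the fourth, at 1.17. ATF4 itself had 265, 284, 227, 218, 418 and 241 CPM, a step of 0.88. The 4 differed at 12 h: SLC1A5 and SLC1A4 were above their 6 h level, TRIB3 was at 54.4 and 54.3 CPM, and CHAC1 was below. At 12 h, outside the missing regions, the median of the list was -0.18 from 6 h, against -0.02 for all genes. Of 23 there, 7 had a 12 h level between 6 h and 24 h, against 6285 of 11363 over all genes. By 48 h 13 of 24 were on the 24 h side, against 7179 of 11916 over all genes.

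The aminoacyl-tRNA synthetases, which load amino acids for translation and many of which answer to ATF4, held no gene past 2-fold among 19, with a median of 0.35. With the GC trend removed the median was 0.63 and 4 were higher, TARS, CARS, WARS and MARS, at 1.08, 1.04, 1.03 and 1.0025, against 2.84% of all genes. Median-of-ratios and TMM scaling both raised the median of the list to 0.55, and CARS was among the genes that then passed 2-fold. The largest steps were in CARS (now CARS1) with 0.88, YARS (now YARS1) with 0.85 and WARS (now WARS1) with 0.85. In 12 of 19 the 24 h level was the highest of the 5 libraries other than 12 h (10.4% of all genes). At 48 h 7 of the 19 were on the 24 h side, against 7179 of 11916 over all genes.

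Polyamines are small cations made from ornithine and abundant in the prostate. Of 13 genes of their synthesis and breakdown 3 were higher (23.1%, against 1.6% of all genes) and none lower (6.29% of all), with a median of 0.34. ODC1, which makes the first polyamine, had 521, 859, 1134, 3188, 4585 and 2751 CPM, a ratio of 4.04 (3.97 to 4.11), SMS, spermine synthase, 43.2, 52.5, 98.9, 209, 274 and 204 CPM, and SAT1, which acetylates polyamines for breakdown or export, 146, 180.2, 316, 521, 797 and 1105 CPM. ODC1 and SMS were highest at 24 h and SAT1 at 48 h. Of 26 genes of glycan synthesis 5 were higher (19.2%, against the same 1.6%) and none lower, with a median of 0.22 (0.57 with the GC trend removed). CSGALNACT1 and CHPF, which build chondroitin sulfate, had 3.19, 3.897, 22.4, 41.4, 76.2 and 61.5 CPM and 79.1, 88.6, 63.4, 113, 204 and 155 CPM. NANS, which makes sialic acid, had 119.9, 139.7, 123, 227, 302 and 242 CPM.

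**Figure D5:**
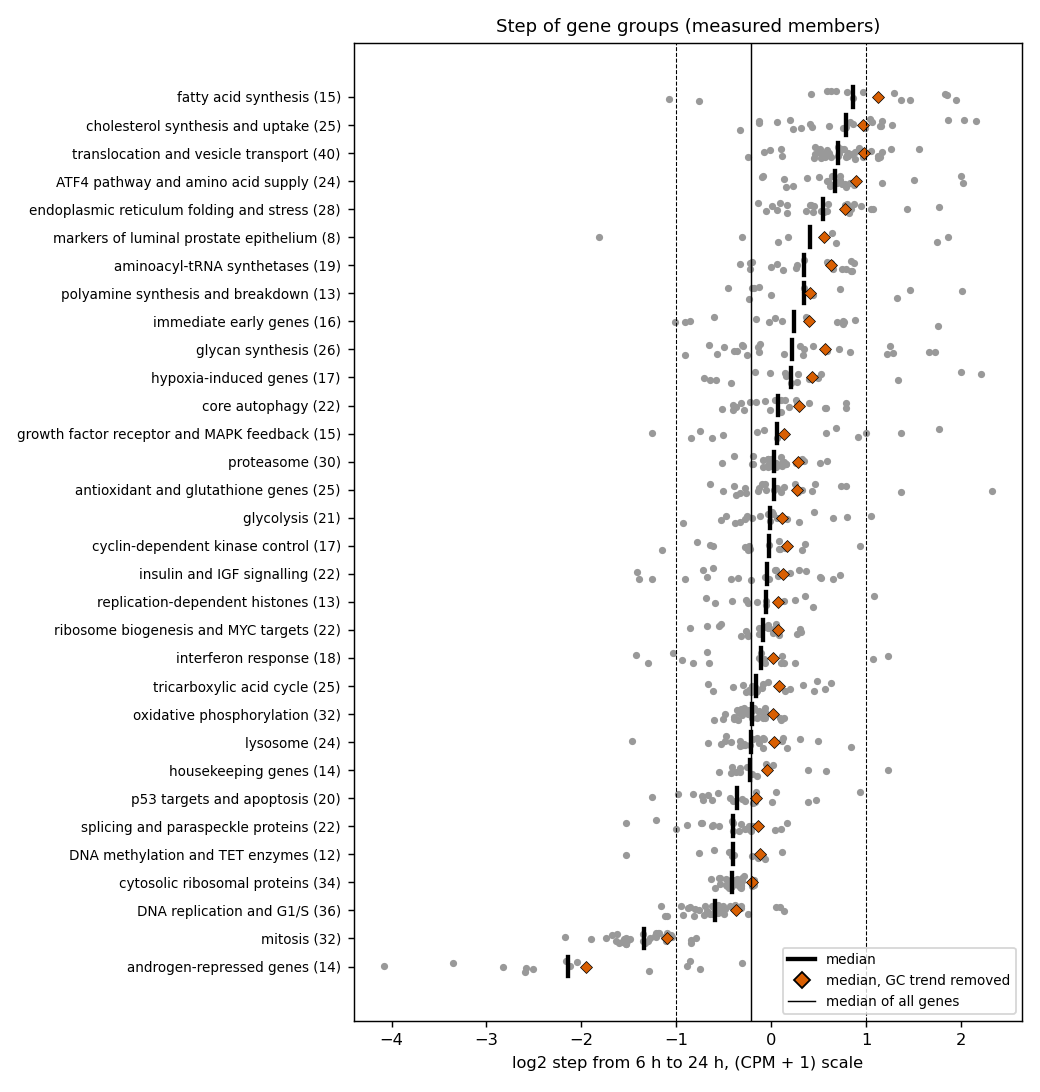
Log2 step from 6 h to 24 h (x axis) of the measured members (grey points) of 32 gene groups (rows, number of members in brackets), with the median (black bar) and the median after removal of the GC trend (orange diamond). The solid line is the median of all genes, -0.22, and dashed lines mark 2-fold; the median of mitosis genes, -1.34, is the lowest but for that of the androgen-repressed genes.

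Genes known as repressed by androgen made up a list of 17, of which 14 were measured. As 6 of them were put on it with their values in this series known, the list is no independent evidence of its direction; of its measured genes 10 were lower and none higher. Without the 6, 4 of 8 were lower and none higher, with a median of -1.09. The 8, like all lists here, were chosen with earlier results of these data known, so they are no independent evidence either. Of all genes 6.29% were lower and 1.6% higher. The 4 that were lower among the 8 were DDC, UGT2B17, CXCR7 and OPRK1. CXCR7 (now ACKR3), an atypical chemokine receptor, had 522, 295, 137, 70.2, 29.9 and 52.97 CPM, a ratio of 0.218 (0.199 to 0.239), as a fall that began before 6 h carried on. UGT2B17, which inactivates androgens and has a close copy in UGT2B15, went from 24.9 to 3.55 CPM. OPRK1, the kappa opioid receptor, had only 2.39 CPM at 6 h and 0.389 at 24 h. MYC, a driver of growth, had 398, 163, 119.7, 120.4, 65.7 and 124 CPM; most of its fall came before 6 h, and its step of -0.86 is short of 2-fold.

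The remaining groups are to be read against 1.6% higher and 6.29% lower of all genes. No gene reached 2-fold among 25 of the tricarboxylic acid cycle (median -0.16), 32 of oxidative phosphorylation (-0.20), 34 cytosolic ribosomal proteins (-0.41), 22 of ribosome biogenesis (-0.09), 30 of the proteasome (0.03) or 22 of core autophagy (0.07). Of the proteasome genes 28 of 30 lay above the median of all genes. Medians this close to 0 can change sign with the scaling, as that of the tricarboxylic acid cycle did by the median of ratios (0.04). Ribosomal proteins are abundant and short and their reads can belong to pseudogenes; 3 of the 34 lay above the median of all genes. In glycolysis 1 of 21 was higher, the hexokinase HK1 at 1.05, with a median of -0.02, or 0.19 by the median of ratios. Among 17 hypoxia-induced genes 3 were higher, above the share of all genes (median 0.21): SLC2A3, NDRG1, known as an androgen target too, with 544, 339.8, 616, 1607, 2469.8 and 2025 CPM, and ANKRD37, on chromosome 4, at 1.34. Of 25 antioxidant genes HMOX1 and the quinone reductase NQO1 were higher, above the share of all genes (median 0.03). NQO1 had 169, 295, 170.2, 311, 442 and 832 CPM. Of 16 immediate early genes KLF4 was higher (1.76) and BTG2 lower (-1.01), with a median of 0.24, or -0.02 without the count minimum. Among 15 growth factor receptors and feedback genes 3 were higher, above the share of all genes, and 1, SPRY1, lower. Their median was 0.06, or -0.15 without the count minimum. The higher ones included ERRFI1, an inhibitor of the EGF receptor, with 33.3, 74.6, 243, 377, 834 and 575 CPM.

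The identity of the cells was read from marker genes. All 8 luminal markers passed the count minimum, at 13557 CPM in sum at 6 h and 21349 at 24 h. The 4 basal markers KRT5, KRT14, TP63 and KRT15 summed to 0.97 and 0.49 CPM and none passed. Of 5 fibroblast markers COL1A1 and COL3A1 passed (sum 42.8 and 32.1 CPM), with DCN at 2 and 0 counts and COL1A2 at 0 and 1 count. Of 4 leukocyte markers CD68 alone passed (sum 17.3 and 14.2 CPM); PTPRC was at 1 count and 0 counts, and CD3E at 0 in both. VWF, 1 of 3 endothelial markers, went from 14.8 to 5.29 CPM, while PECAM1 and CDH5 were below 1 CPM; the part of such cells in the steps was not tested. Of 14 housekeeping genes 1, B2M, was higher by 2-fold, with 94.99, 107, 184, 284, 432 and 539 CPM, and the median of the 14 was -0.23, near that of all genes.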

How the data were processed

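Total RNA from LNCaP cells, 1 library per time and 6 in all, was sequenced on an Illumina GAIIX, per the labels' protocols. The deposited table gives, per the file headers, a read count and an RPM value (scaled to library size) for each transcript in each library. The build was hg19, per the submitters' processing notes; aligner, counter and strand setting were not given in the sources used here.

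Of 18051 lines, 50 exact repeats were dropped and the counts of 18001 transcripts were summed to 17990 genes (610 without a symbol). Listed transcripts held 86.9% to 89.5% of the denominator of the authors' RPM values, and libraries totalled 13179917 to 20587956 counts. CPM was computed from these totals. The 11916 genes averaging 20 counts or more were kept, and a pseudocount of 1 CPM was added, which understates changes of low genes. With 1 library a side no count test was run. Ratios carry exact conditional binomial 95% intervals. The median of ratios (DESeq2 1.42.0) and TMM (edgeR 4.0.16) served as alternative scalings only, and a lowess curve (span 0.3) over GENCODE v29 transcript GC content (11138 genes) as a correction. Scripts were tested on simulated data.

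The members and gene lists were chosen with earlier results of these data known. Genes were named by rule: the 12 largest steps a direction, the 5 largest in the new and the turned-back classes, the 3 largest of each list, and KLK2, KLK3, TMPRSS2, FKBP5, STEAP4 and NCAPD3. Some genes that the rule names are not reported here. Other members of lists that are named were chosen after their values were seen. Promoters were matched by symbol to RefSeq (GRCh38.p14).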

Additional observations from a re-analysis of the deposited data

How the results depend on the processing

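No paired analysis was possible because each time has 1 library, and for the same reason no replicate could be left out. Of 198 values recomputed for 17 counts under 11 alternatives and 1 added after the data were seen, 155 stayed within 1.5 times, and none of 84 named genes past 2-fold changed direction under the 11. List medians near 0 did: 12 of 32 changed sign under at least 1 of the 11, such as glycolysis (-0.02 to 0.19) and the tricarboxylic acid cycle (-0.16 to 0.04) by the median of ratios, and immediate early genes (0.24 to -0.02) and growth factor receptors (0.06 to -0.15) with no filter. Against the median of all genes 3 changed side: cyclin-dependent kinase control, oxidative phosphorylation and lysosome. From 3 h, the p53 list went from -0.36 to 0.16, with all genes at -0.03, and 9 lists in all changed side under at least 1 of the 12. Median-of-ratios and TMM scaling gave 334 and 337 higher genes in place of 191 and 443 and 442 lower in place of 750, 170 and 172 higher genes new after 6 h (86), 18 and 18 higher that turned back (7), 200 and 200 lower that were new (325), 99 and 102 lower that turned back (200), 0 and 0 lower replication genes (3), 14 and 14 higher vesicle genes (7), and 9 and 10 higher folding genes (4). Removal of the GC trend gave 316 higher and 354 lower genes, 197 higher that were new, 24 lower that turned back, 19 lower mitosis genes (29), 1 lower replication gene, 16 higher vesicle genes, 8 higher folding genes and 7 higher ATF4 genes (4). A pseudocount of 5 gave 237 lower genes, 28 higher that carried on (58), 3 higher that turned back, 6 lower that carried on (37), 52 lower that turned back, 115 lower that were new, 15 lower mitosis genes and 1 lower replication gene. A pseudocount of 0.25 gave 11 higher that turned back and 79 lower that carried on. Starting from 3 h in place of 6 h, the alternative chosen after seeing the data, gave 1876 higher genes, 15 lower replication genes, and 26 vesicle, 13 folding, 9 ATF4 and 16 glycan genes (5) higher. The cause of these shifts was not tested, beyond what a larger pseudocount does to low genes. Of 84 named genes past 2-fold, 68 stayed past it under all 11 alternatives that measured them, and 16 fell short in at least 1: BTG2, CRIP2, CTSC, FGFR3, GINS1, HIST1H1E, IFI44, IFITM1, ORC6L, SESN1, SFPQ, SFRS3, SKP2, SPRY1, TK1 and VWF. Depth limits genes of few counts: the limit that a count of 0 allows was 0.224 CPM at 6 h and 0.146 at 24 h.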

Other observations

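Further gene groups are to be read against 1.6% higher and 6.29% lower of all genes as well. Of 22 insulin and IGF signalling genes 3 were lower and none higher (median -0.04). IGFBP3, which binds insulin-like growth factors, had 5.69, 18.1, 22.1, 13.7, 7.72 and 6.51 CPM in the 6 libraries in order of time, and the regulatory subunits of PI3-kinase PIK3R1 and PIK3R3 had 158, 78.4, 167, 105, 63.1 and 57.95 CPM and 138, 155, 156, 139.8, 64.6 and 65.8 CPM. Of 22 splicing and paraspeckle genes 3 were lower (median -0.40). Among them were SFRS3 (now SRSF3) at -1.22 and SFPQ at -1.002, both short of 2-fold under at least 1 alternative. Of 12 genes of DNA methylation and its removal 1 was lower, the dioxygenase TET1, with 5.99, 5.24, 13.3, 9.39, 3.98 and 4.59 CPM.

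The interferon list had 2 of 18 higher and 3 lower (median -0.11). B2M and ISG20 were higher, at 1.23 and 1.08, and IFITM1, IFI44 and OAS3 lower, at -1.42, -1.29 and -1.03. Among 20 genes of the p53 response and apoptosis, SESN1 was the 1 lower (-1.25; median -0.36), and of 24 lysosomal genes CTSC, cathepsin C (-1.46; median -0.21). Of 13 replication-dependent histones HIST1H1E was higher at 1.09 (median -0.06); histone genes are near-identical, and their reads are uncertain.

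The remaining higher genes that turned back, besides SOX9 and GDF15, were led by RAP1GAP, a regulator of the RAP1 GTPase, with 58.6, 43.7, 22.7, 48.4, 75.3 and 86.8 CPM. CRIP2, a LIM domain protein, had 9.56, 8.36, 4.18, 9.61, 12.3 and 11.8 CPM, and PNPLA2, the lipase that starts triglyceride breakdown, 159, 160.4, 79.04, 129.6, 178 and 185 CPM. The 5 genes of this class with a GC value had a median of 62.9%, against 49.5% for all genes. With the GC trend removed, the change from 0 h to 6 h was -0.25 for CRIP2 and -0.40 for PNPLA2. It was -0.60 for GDF15 and -1.34 for SOX9, and RAP1GAP had no GC value. The inverted repeat of the androgen response element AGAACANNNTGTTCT, searched on both strands, was in 0 of the 96 windows of named genes and in 1 of all 27305 (0.00366%); such windows hold the promoter only.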
